A study of Mus musculus with 3 samples.

Results

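The 10 genes described here are core parts and direct outputs of the mammalian circadian clock: Arntl, Per1, Per2, Per3, Cry1, Cry2, Dbp, Nr1d1, Nr1d2 and Tef. They were chosen by gene symbol, with earlier results of these data known. Every probe set whose only gene symbol in the platform annotation is one of them was taken. This gave 22 probe sets of the 45101 on the array, for 10 of 18193 genes with a symbol of their own. Expression was measured in RNA from follicle-associated epithelium of the small intestine, the epithelial sheet that covers Peyer's patch lymphoid follicles and holds the antigen-sampling M cells. There were 2 arrays from mice depleted of RBP-J (floxed Rbpj alleles cut by VillinCre, a recombinase driven in intestinal epithelium by the Villin promoter), here called KO1 and KO2 after their labels, and 1 array from wild type mice. All samples were labelled untreated and C57BL/6, and ages and the time of day at which tissue was taken are not stated in the labels. The labels do not say whether the depleted samples came from separate animals or pools, and their spread may be technical, which p-values cannot tell from spread between animals. RBP-J carries Notch signals to DNA, and the comparison asks how clock transcripts differ in this epithelium when it is depleted.

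The clock is a transcriptional feedback loop. BMAL1, the product of Arntl, pairs with CLOCK or NPAS2 and binds E-box DNA elements in the Per, Cry, Nr1d and Dbp family genes, and PER and CRY proteins later return to the nucleus and inhibit that pair. NR1D1 and NR1D2 (REV-ERB alpha and beta) repress Arntl through an element shared with the ROR activators, while the PAR bZIP activators DBP and TEF act through D-boxes, which NFIL3 represses. In mouse peripheral tissues Arntl and the Nr1d, Dbp and Per genes therefore peak at roughly opposite times of day. Intestinal epithelium runs such a clock, and its phase follows feeding as well as light.

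The elements of this loop can be read in the promoters of the genes themselves, which are shown because the E-box, the D-box and the RRE are the sites through which the 10 genes act on one another. RefSeq promoter windows (assembly GRCm38.p6, 250 bases before to 50 after an annotated start, matched by symbol) were found for 9 of the 10 genes, 12 windows in all. No window was found for Per2, so its promoter was not searched. Both strands were searched for the E-box CACGTG, the weaker E'-box CACGTT, the D-box TTATGNAA, the core TAGGTCA of the RRE (the ROR and REV-ERB element) and the RBP-J core GTGGGAA. Over all 32851 windows in the table the E-box was present in 7.15%, the E'-box in 4.68%, the D-box in 3.38%, the RRE core in 2.61% and the RBP-J core in 6.38%. Matches are in capitals below, and each sequence runs 5′ to 3′ on the strand of its gene.
Per1, first start, chr11:69098769-69098938, plus strand, an E-box and then a D-box: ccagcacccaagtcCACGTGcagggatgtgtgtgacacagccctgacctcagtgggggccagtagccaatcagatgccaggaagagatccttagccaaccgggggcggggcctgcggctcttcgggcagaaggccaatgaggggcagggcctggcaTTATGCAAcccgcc
Cry1, chr10:85185099-85185144, minus strand, an E'-box (reverse strand) and then an E-box: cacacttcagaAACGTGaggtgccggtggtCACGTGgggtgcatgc
Tef, first start, chr15:81802531-81802566, plus strand, an E-box: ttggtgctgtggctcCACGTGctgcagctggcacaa
Tef, second start, chr15:81811261-81811296, plus strand, an E-box: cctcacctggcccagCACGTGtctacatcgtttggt
Nr1d1, chr11:98775385-98775420, minus strand, an E'-box (reverse strand): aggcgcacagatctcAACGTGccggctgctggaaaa
Per3, chr4:151044806-151044880, minus strand, a pair of D-boxes: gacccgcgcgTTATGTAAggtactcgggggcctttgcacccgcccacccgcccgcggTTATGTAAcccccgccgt
Arntl, second start, chr7:113207528-113207557, plus strand, an RRE core: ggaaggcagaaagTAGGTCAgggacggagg
Cry2, chr2:92434217-92434252, minus strand, an RBP-J core that overlaps an E'-box (reverse strand): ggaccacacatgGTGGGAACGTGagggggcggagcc
Per1, second start, chr11:69099923-69099953, plus strand, an RBP-J core (reverse strand): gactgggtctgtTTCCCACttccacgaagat

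In these windows 3 genes, Per1, Cry1 and Tef, held an E-box, and Tef held one before each of its annotated starts. The RRE core of Arntl began at base 31, counting its second start as base 1. The windows of Dbp and Nr1d2 held none of the searched letters, which says nothing of elements farther away. A match is a description of the sequence and was not tested for binding.

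**Figure D1:**
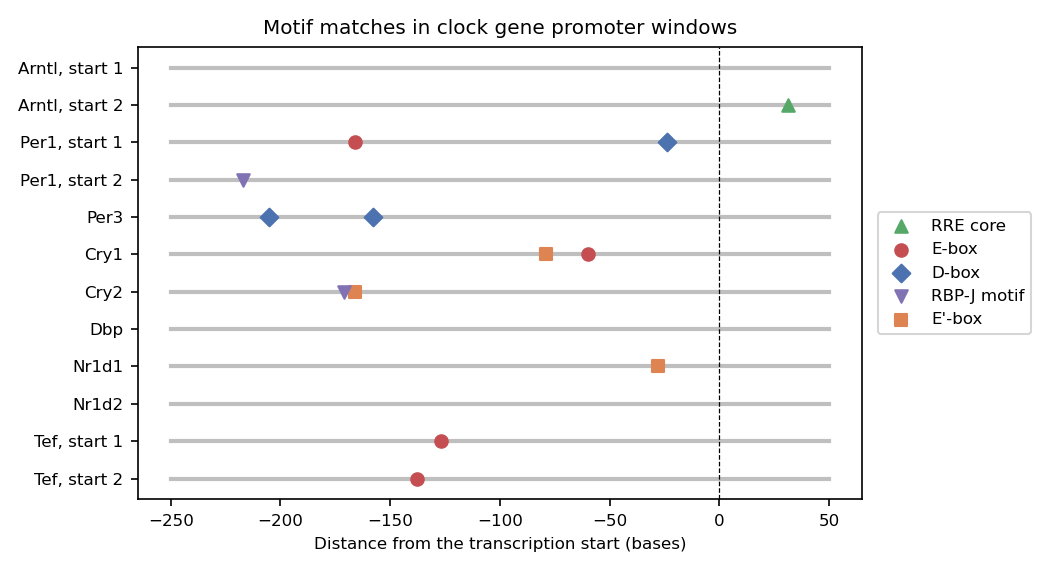
Each grey line is 1 promoter window, from 250 bases before to 50 bases after an annotated transcription start (dashed line), with distance in bases on the horizontal axis and symbols at the first base of each motif match on either strand. Per1, Cry1 and Tef have E-boxes, Per3 has D-boxes, and the RRE core of Arntl lies after its second start.

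Intensities are given in multiples of the array median. Each array's median in the deposited table is 1. Differences are depleted minus wild type on the log2(value + 0.248) scale, which understates the fold of dim genes. The median over the 11885 genes tested was -0.003 for KO1 and 0.22 for KO2, and KO2 values are read against that shift. A 2-fold difference is 1 on this scale, and where a pair of values is given for the depleted arrays it is that of KO1 and then KO2. Rbpj itself read 2.72 and 5.74 in the depleted arrays and 7.15 in wild type on its brightest probe set, and as the position of its probes against the floxed exons is not stated, these values do not check the deletion. Its other probe sets read 4.14 and 4.92 in the depleted arrays and 5.37 in wild type, and 2.30 and 4.21 against 3.79 in wild type, so KO2 was above wild type on the last. Genotype and sex-linked transcripts split the arrays the same way: Xist read 42.8 and 43.4 in the depleted arrays and 0.297 in wild type, so an effect of genotype cannot be told apart from one of sex. The tissue's own markers were present. All 6 epithelial markers, such as Epcam and Vil1, read at least 65.6 in every array, and the 7 markers of follicle-associated epithelium and M cells read 9.90 or more. Transcripts of B and T cells were present too. The summed intensity of 6 B cell markers was 24.5 and 62.6 in the depleted arrays and 48.6 in wild type. That of 5 T cell markers was 11.2 and 19.2 against 13.97 in wild type. The sum of 4 macrophage markers was 61.1 and 75.7 against 60.6, but most of it was Lyz2, at 55.68 and 69.985 against 56.849. Csf1r read 3.217 and 3.58 against 2.376, Cd68 2.113 and 2.068 against 1.189, and Adgre1 0.127 and 0.098 against 0.151. The sum of 7 fibroblast and smooth muscle markers was 3.57 and 5.68 against 4.47, and only 3 of the 7 were bright enough to be tested. These last sums are thus weak measures of macrophages, fibroblasts and smooth muscle. In bulk RNA, fewer cells of a type and less RNA per cell cannot be told apart.

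None of the 10 clock genes passed the test between depleted and wild type epithelium (limma, Benjamini-Hochberg over 11885 genes, adjusted p = 0.9997 for each), where 0.0841% of all genes tested did, 10 genes. At an unadjusted p under 0.05 there was 1 clock gene, Per1, against 2.27% of all genes. By direction alone, 6 of the 10 were higher than wild type in both depleted arrays (Per1, Cry2, Dbp, Nr1d1, Nr1d2 and Tef), where 39.0% of all genes were. With arrays scaled to probe sets with a mean of 5 or more, a scaling added after seeing the data, 5 were, as Cry2 in KO2 then lay at -0.03. The 2 that were lower in both were Arntl and Per3, where 19.5% of all genes were, so that 8 of 10 kept to 1 side of wild type, where 58.5% of all genes did. Cry1 joined the lower ones after quantile normalization, after equalizing the 75th percentile and under that added scaling, at -0.14, -0.10 and -0.18 in KO2. With a gene's probe sets averaged, Per3 was split, at 0.14 in KO1 and -0.18 in KO2, and Per2 was lower in both, at -0.46 and -0.58. Read against each array's median difference, the same 6 genes lay above it in both arrays, where 29.9% of all genes did, and Arntl, Per3 and Cry1 lay under it in both, where 29.9% of all genes did as well. With 1 wild type array the spread came from the depleted pair, and the lone array was assumed to vary like them. This spread was mostly pooled over genes, so the SE of a gene says little of how far apart its own depleted values were.

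**Figure D2:**
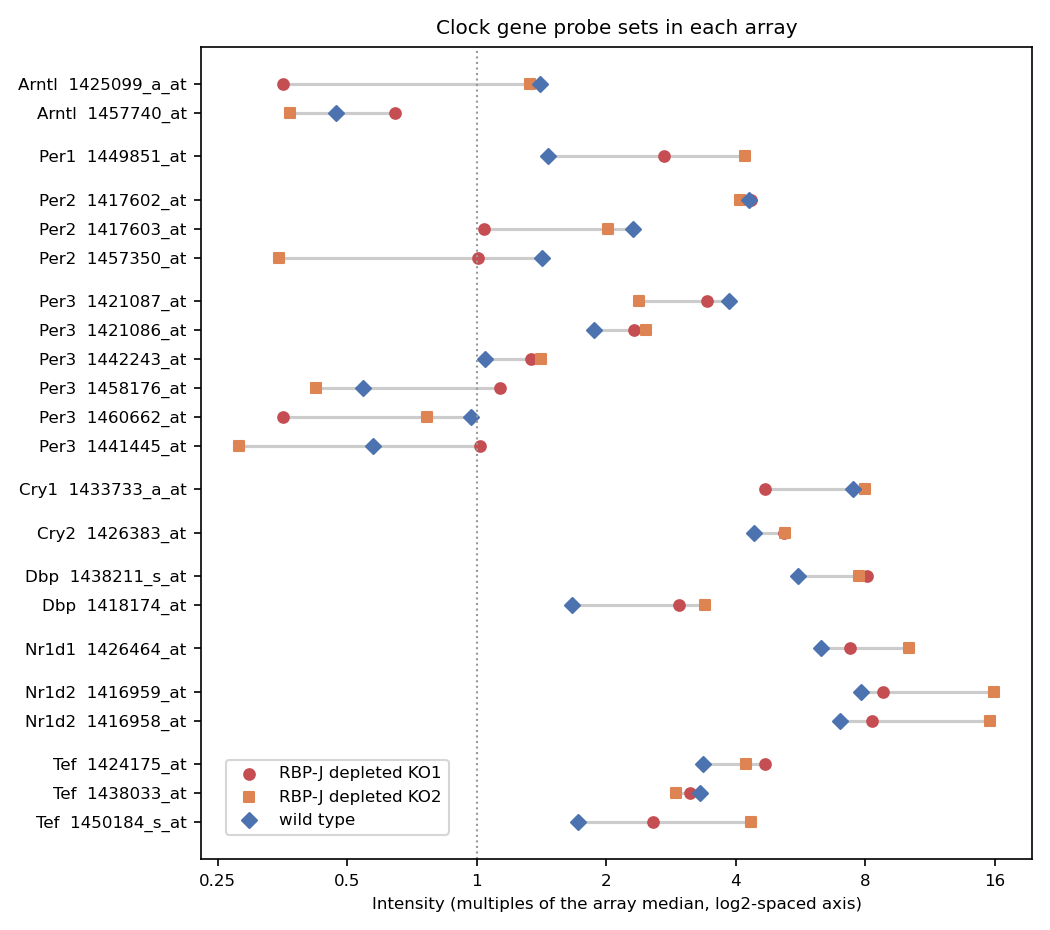
Intensity of each of the 22 clock gene probe sets in the 2 RBP-J depleted arrays (red circles and orange squares) and the wild type array (blue diamonds), in multiples of the array median on a log axis; grey lines span the 3 values and the dotted line is the array median. Both depleted arrays lie above wild type for Per1, Cry2, both Dbp, Nr1d1 and both Nr1d2 probe sets. They also do for 1424175_at and 1450184_s_at of Tef and for 1421086_at and 1442243_at of Per3, whose other probe sets do not. The brighter Arntl probe set is low in KO1 only.

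The positive limb of the loop was measured through Arntl. Its brighter probe set, 1425099_a_at, read 0.354 and 1.33 in the depleted arrays and 1.40 in wild type. KO1 was thus well under the other arrays, while KO2 lay next to wild type. The log2 differences were -1.46 and -0.07, with a mean of -0.76 (SE 0.60, limma adjusted p = 0.9997). Arntl was the only clock gene 2-fold or more from wild type in KO1, where 6.42% of all genes were, and also the only one 2-fold apart between the depleted arrays (9.06% of all genes). The other Arntl probe set, 1457740_at, was the only one of the 22 under the intensity filter. It read 0.644 and 0.369 in the depleted arrays and 0.472 in wild type, in another order than the brighter one. Of the 6 Arntl values, 4 lay under the array median, and the size of such dim differences depends on the pseudocount: the mean of the brighter probe set was -0.14 with a pseudocount of 5.

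The Nr1d genes, which encode the repressors of Arntl, were higher in the depleted arrays by amounts that differed between the arrays. Nr1d1 read 7.37 and 10.1 in the depleted arrays and 6.31 in wild type. Nr1d2 read 8.79 and 15.95 in the depleted arrays and 7.83 in wild type on its brighter probe set, and 8.27 and 15.6 against 6.97 on the other. Both Nr1d2 probe sets put KO2 far above KO1, which lay near wild type. The log2 differences of the brighter Nr1d2 probe set were 0.16 and 1.004 (mean 0.58, SE 0.47, limma adjusted p = 0.9997), and those of Nr1d1 were 0.22 and 0.66 (mean 0.44, SE 0.48). Less the array median, KO2 was above wild type by 0.78 for Nr1d2 and by 0.44 for Nr1d1.

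Per1, a repressor arm gene that glucocorticoids and cAMP signals also induce directly in mouse cells, had the largest mean difference of the 10 over KO1 and KO2 as tested, though Arntl in KO1 was farther from wild type, and Nr1d2 passed it with a pseudocount of 5 (0.41 against 0.38). It read 2.73 and 4.19 in the depleted arrays and 1.47 in wild type on its only probe set, so both depleted arrays lay above wild type. The log2 differences were 0.80 and 1.37, with a mean of 1.08 (SE 0.52, unadjusted p = 0.0366, limma adjusted p = 0.9997). In KO2 Per1 and Nr1d2 were 2-fold or more from wild type, where 5.21% of all genes were, though Nr1d2 was at 0.75 after quantile normalization. No clock gene was so in both KO1 and KO2, where 1.33% of all genes were.

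Per2, a close relative of Per1 in the loop, did not share that pattern. Its brightest probe set, 1417602_at, read 4.33 and 4.09 in the depleted arrays and 4.29 in wild type, on the log2 scale the narrowest range of the 22 probe sets. The log2 differences were 0.01 and -0.07 (mean -0.03, SE 0.50, limma adjusted p = 0.9997). The other Per2 probe sets were lower in both depleted arrays. These read 1.04 and 2.02 against 2.31 in wild type (1417603_at), and 1.004 and 0.347 against 1.42 in wild type (1457350_at). They put different depleted arrays lowest.

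Per3, which is dispensable for the rhythm of the loop itself in mice, had 6 probe sets that did not go one way. The brightest, 1421087_at, read 3.42 and 2.39 in the depleted arrays and 3.86 in wild type (log2 differences -0.16 and -0.64). Next in brightness, 1421086_at read 2.33 and 2.47 in the depleted arrays and 1.87 in wild type, and 1442243_at read 1.34 and 1.41 against 1.05 in wild type. These were higher in both depleted arrays where the brightest was lower. The 3 dimmest probe sets read between 0.280 and 1.13 in every array, and 1460662_at was lower than wild type in both depleted arrays while 1458176_at and 1441445_at split the depleted arrays around it. The direction of Per3 thus depends on the probe set.

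**Figure D3:**
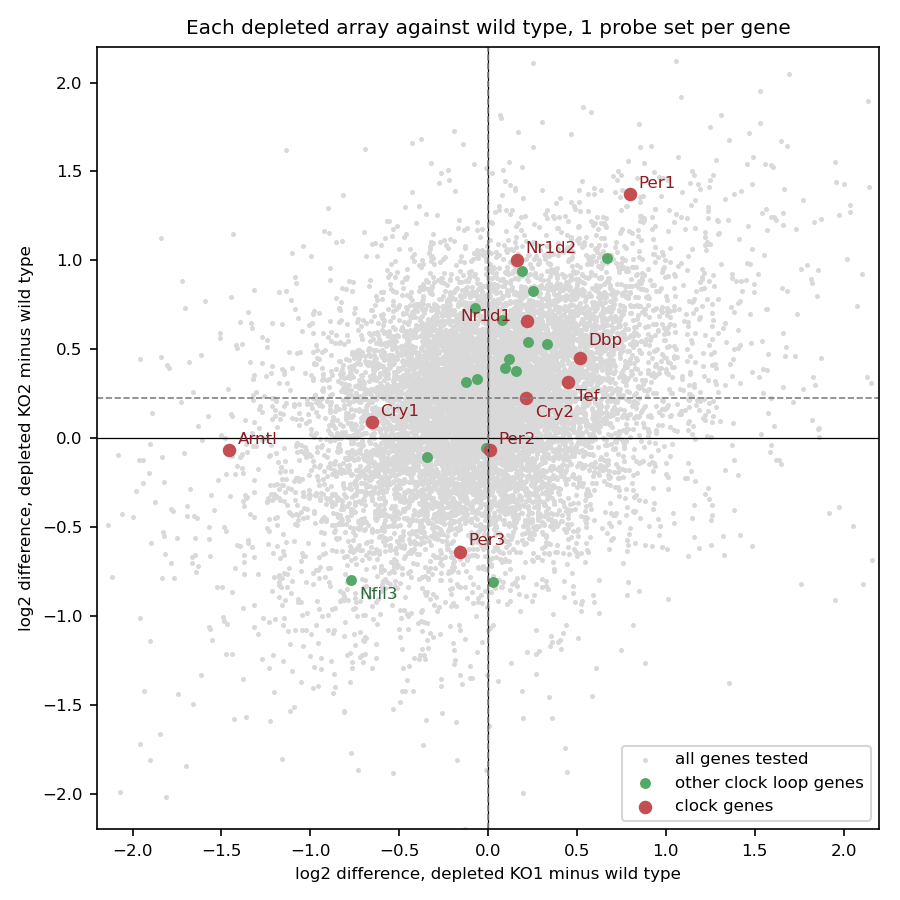
Log2 difference from wild type in KO1 (horizontal) and KO2 (vertical) for the 10 clock genes (red), 16 other clock loop genes (green) and all 11885 genes tested (grey, axes cropped); dashed lines are the medians of all genes, -0.003 and 0.22. Per1 lies farthest up and right of the clock genes, Arntl farthest left, and Per3 lowest.

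The cryptochromes, the proteins that inhibit the CLOCK and BMAL1 pair, differed from each other. Cry1 read 4.67 and 7.97 in the depleted arrays and 7.48 in wild type, so KO1 was low and KO2 lay near wild type. Cry1 and the brighter Arntl probe set were both lowest in KO1. Its log2 differences were -0.65 and 0.09 (mean -0.28, SE 0.48, limma adjusted p = 0.9997). Cry2 read 5.17 and 5.21 in the depleted arrays and 4.42 in wild type. The Cry2 difference was nearly equal in both, at 0.22 and 0.23, and in KO2 it lay 0.0019 above the median of all genes.

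Dbp and Tef, the D-box activators, were higher in both depleted arrays on their brightest probe sets. Dbp read 8.09 and 7.73 in the depleted arrays and 5.58 in wild type on 1438211_s_at (log2 differences 0.52 and 0.45, mean 0.48, SE 0.48, limma adjusted p = 0.9997). Its other probe set, 1418174_at, read 2.96 and 3.39 in the depleted arrays and 1.66 in wild type, with differences of 0.75 and 0.93. Both Dbp probe sets placed both depleted arrays above wild type, and the depleted values were close to each other. Tef read 4.67 and 4.23 in the depleted arrays and 3.36 in wild type on 1424175_at (log2 differences 0.45 and 0.31), and 2.56 and 4.33 against 1.72 in wild type on 1450184_s_at (0.52 and 1.22). Its remaining probe set, 1438033_at, read 3.13 and 2.91 in the depleted arrays and 3.30 in wild type, slightly lower in both. Less the array median, KO2 on the brightest probe set was above wild type by 0.23 for Dbp and by 0.09 for Tef. The suffix _s marks a probe set that can match more than 1 transcript, so 1 of the Dbp and 1 of the Tef probe sets may read related transcripts as well.

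Over the 22 probe sets, 11 were higher in both depleted arrays (37.0% of 22612 probe sets tested were), 6 lower in both (21.3%) and 5 split. Tested 1 by 1, 0 of the 21 clock gene probe sets over the intensity filter passed (limma adjusted p = 0.9999 for each), where 0.0929% of all probe sets tested did, and 1, that of Per1, had an unadjusted p under 0.05. Of the genes with more than 1 probe set, Dbp and Nr1d2 had every probe set higher in both depleted arrays. Arntl, Per3 and Tef had probe sets whose mean differences had opposite signs, and the Per2 means were all negative, at -0.03, -0.58 and -0.95.

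The rest of the loop gave 0 calls among 16 tested genes of 22 listed, and 0 at an unadjusted p under 0.05, where 0.0841% and 2.27% of all genes passed. Its median log2 difference was 0.09 in KO1 and 0.42 in KO2, beside -0.003 and 0.22 over all genes, and 0.19 and 0.27 for the 10 clock genes. Nfil3, the D-box repressor that opposes Dbp and Tef, read 2.505 and 2.453 in the depleted arrays and 4.46 in wild type. This is the reverse of the Dbp values, with both depleted arrays under wild type and close to each other (log2 difference -0.79, limma adjusted p = 0.9997). Hlf, a PAR bZIP activator on the same list, named after its values were seen, did not follow Dbp and Tef. On the brighter of its 2 probe sets it read 1.17 and 0.549 in the depleted arrays and 1.15 in wild type. Its log2 differences were 0.03 and -0.81. Clock read 10.96 and 14.5 in the depleted arrays and 11.5 in wild type, and Npas2, its stand-in partner of BMAL1, 11.8 and 14.5 against 10.99 in wild type. These are the brightest of 4 Clock and of 2 Npas2 probe sets, and neither was low in KO1 as the brighter Arntl probe set was.

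Further genes of the loop had their highest values in KO2 on their brightest probe sets, as Nr1d2 did. Of the 16 tested genes of this list 9 were higher than wild type in both depleted arrays, where 39.0% of all genes were. Lower in both were 3, Nfil3 among them, where 19.5% of all genes were. Ciart, a repressor of the CLOCK and BMAL1 pair, read 0.844 and 1.58 in the depleted arrays and 0.707 in wild type, and Bhlhe40, a repressor at E-boxes, 21.5 and 32.1 against 17.96 in wild type. Cipc, another inhibitor of CLOCK, read 8.16 and 10.2 in the depleted arrays and 6.94 in wild type on its brightest probe set. Its next probe set was above wild type in KO2 alone, at 4.47 and 7.18 against 4.57 in wild type, and its dimmest was lower in both, at 2.24 and 1.88 against 2.40. Btrc, a ubiquitin ligase subunit that marks PER proteins for destruction, read 3.41 and 4.39 in the depleted arrays and 2.05 in wild type. A dimmer Btrc probe set ran the other way, at 0.156 and 0.340 against 1.37 in wild type. Fbxw11, the paralog of Btrc, Nono, a partner of PER proteins, and the phosphatase subunit Ppp1cb were also above wild type on their brightest probe sets. Their log2 differences were 0.12 to 0.33 in KO1 and 0.38 to 0.53 in KO2. In KO2 the median of all genes was 0.22 and the upper quartile 0.49. The suffix _x of these probe sets marks probes that may also match other transcripts. Each of these genes had a dimmer probe set that was lower than wild type in KO1. Bhlhe41, a relative of Bhlhe40 that was under the intensity filter and was named after its values were seen, read 0.150 and 0.096 in the depleted arrays and 1.09 in wild type on the brighter of its probe sets, and 0.084 and 0.652 against 0.277 on the other.

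Clock output genes, a list of genes described as rhythmic in mouse tissues, also gave 0 calls among 12 tested of 14 listed, where 0.0841% of all genes were called. Their median log2 difference was -0.02 in KO1 and 0.50 in KO2, beside -0.003 and 0.22 over all genes. Of the 12, 5 were higher than wild type in both depleted arrays, where 39.0% of all genes were. In both arrays 0 were lower, where 19.5% of all genes were, and the rest were split. Usp2, a deubiquitinase with strong clock-driven rhythms in mouse tissues, read 3.27 and 9.24 in the depleted arrays and 2.99 in wild type. Its other probe set read 3.21 and 5.90 against 3.32 in wild type, so both place KO2 alone above the rest. Ppara, the nuclear receptor of fatty acid oxidation, read 15.2 and 15.9 in the depleted arrays and 9.52 in wild type. Its other probe sets gave log2 differences of 0.13 in KO1 and 0.58 in KO2, and of 0.25 in KO1 and 0.59 in KO2. Cdkn1a, the cell cycle inhibitor p21, read 59.3 and 62.4 in the depleted arrays and 46.3 in wild type, but its other probe set was high in KO2 alone, at 22.5 and 51.8 against 22.3 in wild type. Lonrf3 read 1.59 and 0.948 in the depleted arrays and 0.862 in wild type, and its other probe set 1.39 and 1.38 against 0.525.

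**Figure D4:**
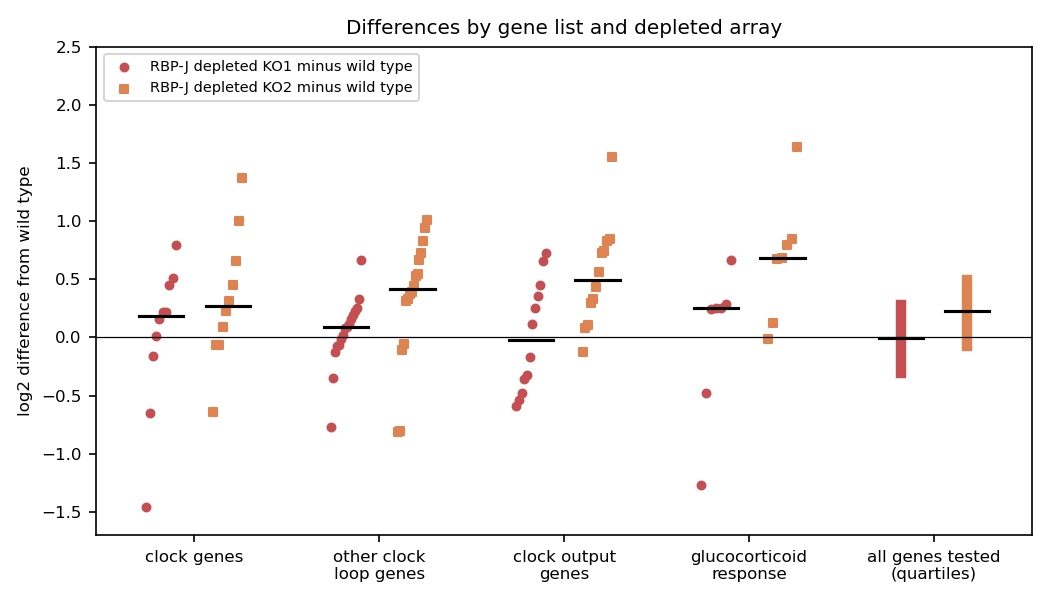
Log2 difference from wild type in KO1 (red circles) and KO2 (orange squares) for each tested gene of 4 lists, with the list's median as a black bar; at the right, thick bars span the quartiles of all 11885 genes tested. The clock genes reach between -1.46 and 0.80 in KO1 and between -0.64 and 1.37 in KO2.

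KO1 and KO2 differed from each other in measures that touch these values. All 6 B cell markers were lower than wild type in KO1 and 3 of 6 in KO2, and none was at 0. The 3′ over 5′ signal of the array's Gapdh control probes, which goes up as RNA degrades, was 2.28 in KO1, 1.54 in KO2 and 1.83 in wild type. That of the Actb control probes differed less, at 1.15 in KO1, 1.02 in KO2 and 1.11 in wild type. The B cell markers and the Gapdh ratio moved with the low Arntl and Cry1 values of KO1, and their part in those values was not tested. The summed intensity of the 7 markers of follicle-associated epithelium and M cells was 343 in KO1, 455 in KO2 and 321 in wild type. All 7 were higher than wild type in KO2, but only 4 were in KO1. There Gp2 (9.90 against 19.8 in wild type), Spib (33.8 against 38.9) and Ccl20 (45.2 against 49.9) were lower. The sum was highest in KO2, where Nr1d2, Per1 and Usp2 were highest, and its part was not tested either. This was not particular to these markers. The summed markers of each other cell type were highest in KO2 too, those of intestinal epithelium at 604 in KO1, 678 in KO2 and 524 in wild type. The median over all genes was 0.22 in KO2 and -0.003 in KO1.

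The genes whose 2 log2 differences from wild type lay nearest to those of Dbp were Plxna2, Tpst2, Tdo2, Tusc3 and St3gal4, at distances of 0.005 to 0.02. The distance is Euclidean over the 2 differences and takes no account of intensity. With 3 arrays such likeness is common, and 121 named genes lay within 0.1 of Dbp. Those nearest to Arntl were Zfp113, Tmem104, Fntb, Setdb2 and Mrm2, at 0.04 to 0.08, and 6 genes in all lay within 0.1. None of these 10 is on the lists of clock genes used here.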

How the data were processed

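The authors deposited 1 linear intensity for each probe set on each array. MAS5 is the tool named, per the submitters' processing notes, and its version and settings are not given in the sources used here. No scanner file or detection call was analysed here. Names came from the platform annotation, and a probe set with several symbols or none was left out. A gene was represented by its brightest probe set (mean over the arrays), and was tested if that mean reached 0.598, the 40th percentile. The test was limma 3.58.1 in R 4.3.3 (lmFit, eBayes with intensity trend) on log2(value + 0.248), where the pseudocount is the 25th percentile of the table, with Benjamini-Hochberg adjustment over 11885 genes and calls under 0.05. With 1 residual degree of freedom per gene, the spread is mostly pooled over genes. The fit was tested on simulated data. No depth applies to arrays, and their number limits the precision. Named genes are all clock gene probe sets; of each other list, up to 8 tested members that moved one way in KO1 and KO2, ranked by the smaller difference; and the 5 genes nearest to Dbp and to Arntl. Clock, Npas2, Hlf, Bhlhe41, Tsc22d3, Wee1 and Nampt were named after their values were seen. The members and lists were chosen with earlier results of these data known. Alternatives covered the pseudocount, the filter, the scaling, the probe sets of a gene, the eBayes trend and each depleted array left out.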

Additional observations from a re-analysis of the deposited data

How the results depend on the processing

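The number of clock genes called by limma was 0 under every alternative run, and no clock gene's mean difference changed sign under another pseudocount, filter or scaling or with a gene's probe sets averaged. Single dimmer probe sets did differ in sign from the brightest one for Arntl, Per3 and Tef. Averaging moved Per2 to -0.52, against -0.03, and Per3 to -0.02, against -0.40. Arntl ranged from -0.88, with arrays scaled to probe sets whose mean was 5 or more (a choice made after seeing the data), to -0.14 with a pseudocount of 5, and was not tested with the filter at the 60th percentile. Per1 ranged from 0.38 to 1.08, and its unadjusted p from 0.0115, averaging a gene's probe sets, to 0.0783 without the filter. limma called 10 genes in all, against 1 unfiltered, 6 filtered at the 60th percentile, 4 after quantile normalization, 4 after equalizing the 75th percentile, 5 scaled to bright probe sets and 21 probe sets tested singly. Without the filter 1 other clock loop gene, Bhlhe41, was 2-fold from wild type in KO1 and KO2, where the count was 0 otherwise. Leaving out KO1 or KO2 left 1 array against 1 with no test. The count of clock genes 2-fold from wild type, 0 over both arrays, was then 1 to 2, that of other clock loop genes 0 to 1, of clock output genes 0 to 1 and of glucocorticoid response genes 1 in either case. The difference of Cry1 was then -0.652 to 0.0878 and that of Per2 -0.0666 to 0.0123, so each changed sign. A count of genes on 1 side of wild type has no value with 1 depleted array. No paired analysis was possible because the labels number only the depleted samples and there is 1 wild type array.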

Other observations

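Genes that glucocorticoids induce, a list chosen because Per1 is one of their targets in mouse, had a higher median in KO2 than in KO1. Of 7 tested genes of 8 listed 0 were called by limma and 0 had an unadjusted p under 0.05, where 0.0841% and 2.27% of all genes did, and their median log2 difference was 0.25 in KO1 and 0.68 in KO2, beside -0.003 and 0.22 over all genes. Fkbp5, a chaperone that feeds back on the glucocorticoid receptor, read 3.40 and 9.30 in the depleted arrays and 2.82 in wild type, and its next probe set 0.995 and 2.24 against 0.776 in wild type. Sgk1, a kinase of ion transport, read 15.9 and 22.7 in the depleted arrays and 13.0 in wild type. Ddit4, an inhibitor of mTORC1, read 60.2 and 80.9 in the depleted arrays and 50.5 in wild type, and the phosphatase Dusp1 4.26 and 5.86 against 3.56 in wild type. Tsc22d3, which encodes the glucocorticoid-induced leucine zipper, was named after its values were seen. On the brightest of its 4 probe sets it was under wild type in KO1 and above it in KO2, at 2.40 and 6.37 against 3.44 in wild type. The transcription factor Klf9 was instead highest in KO1 on its brightest probe set, at 27.2 and 18.5 against 17.0 in wild type. Its 7 probe sets did not go one way, and the next in brightness was highest in KO2, at 6.89 and 9.01 against 5.84. The metallothionein Mt2 was low in KO1 alone, at 5.39 and 13.3 against 13.4 in wild type.

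The kinase Wee1 and the NAD synthesis enzyme Nampt, both E-box targets in mouse and named after their values were seen, were low in KO1. This was read on the brightest of 2 Wee1 and of 3 Nampt probe sets. Wee1 read 2.33 and 6.02 in the depleted arrays and 3.49 in wild type, and Nampt 7.60 and 12.3 against 11.6 in wild type. Neither was called by limma. Low values in KO1 were not the rule among such genes. Of the 12 tested clock output genes 6 were higher than wild type in KO1, as were 7 of the 10 clock genes. The median over all genes in KO1 was -0.003. Per1, Dbp, Nr1d1 and Nr1d2, also E-box targets, were higher in KO1, and Cry1 was lower.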
